A study of Mus musculus with 4 samples.

Results

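The mitochondrial ribosomal protein genes were examined in sorted hair cell progenitors of the neonatal mouse cochlea. They were taken as every gene of the deposited table whose symbol starts with Mrpl or Mrps followed by a digit, which gave 77 of 23997 genes. Of these, 48 symbols start with Mrpl and 29 with Mrps. The RNA-Seq experiment compared Lgr5+ progenitors with Lgr6+ progenitors. Both were EGFP+ cells sorted at postnatal day 3, the Lgr5+ cells from Lgr5-EGFP-IRES-creERT2 mice and the Lgr6+ cells from mice carrying Lgr6-EGFP-IRES-CreERT2, and the labels give C57BL/6 as the strain and cochlea as the tissue of both. In these reporter lines EGFP is driven from the locus of the named receptor, so the sort selects cells by EGFP from that locus.

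Mitochondria keep a ribosome of their own, which makes the few proteins encoded by mitochondrial DNA, all of them core subunits of the respiratory chain or the ATP synthase. Its ribosomal RNAs come from mitochondrial DNA, while its proteins are encoded in the nucleus, made in the cytoplasm and imported. Many of these proteins descend from bacterial ribosomal proteins, and the others were added in the mitochondrial lineage. Mitochondrial translation has a known place in hearing. A change in the mitochondrial small-subunit ribosomal RNA causes sensitivity to aminoglycosides, and human variants in several nuclear genes of this machinery cause hearing loss.

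The labels list 2 libraries per population, 4 in all, whereas the methods state that each RNA was divided into 3 fractions. The table holds 1 FPKM value per gene and population, in which the authors combined the libraries. FPKM is a fragment count divided by transcript length and by the number of mapped fragments, so it can be compared between genes. Single libraries were not analysed, so no difference has a replicate check, no error is given and no test was run. In bulk RNA, fewer cells of a type and less RNA per cell cannot be told apart. The log2 change of a gene is the Lgr6+ value of log2(FPKM + 1) less the Lgr5+ value, and the added 1 makes it smaller than the log2 ratio of FPKM. A gene was called higher in a population when this difference reached 1.5-fold. All 77 genes were among the 13436 genes kept, which reached an FPKM of 1 in either population.

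The table holds no read counts, but its low FPKM values fall on steps. Among 8105 genes with 1 annotated transcript, FPKM times effective length in kilobases had a step of 0.129 in the Lgr5+ population and of 0.0402, 3.20 times finer, in the Lgr6+ population. Whether a step is 1 fragment is not known. The 43 mitochondrial ribosomal protein genes with 1 transcript held at least 59.8 steps in Lgr5+ progenitors and at least 214 in Lgr6+ progenitors. Markers of other cells also differed. The 6 macrophage markers summed to an FPKM of 0.905 in Lgr5+ and 204 in Lgr6+ progenitors, with 5 of the 6 listed at 0 in Lgr5+ progenitors, and all 6 were higher in Lgr6+ progenitors. The 5 erythroid markers summed to 629 and 108, the 4 glia markers to 72.9 and 197, the 4 mesenchyme markers to 38.9 and 120, the 3 endothelial markers to 1.54 and 22.1 and the 4 hair cell markers to 101 and 188. Neuron markers summed to 76.6 and 60.0. Of the 6 supporting cell markers 5 had lower values in Lgr6+ progenitors, with a median log2 change of -0.46 and 2 past 1.5-fold, *Sox2* (140 and 54.8) and *Jag1* (108 and 59.2). Their sums of 3360 and 3407 were carried by *S100a1*, with 2959 and 3177. *Lgr5* itself had an FPKM of 9.65 in Lgr5+ and 24.99 in Lgr6+ progenitors, and *Lgr6* had 2.06 and 2.90, so neither sorting gene was higher in Lgr5+ progenitors. The part of these differences in the values given here was not tested.

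As a group, the mitochondrial ribosomal protein genes took the same share of the transcriptome in both populations. Their FPKM summed to 9312 in Lgr5+ progenitors and 7707 in Lgr6+ progenitors, which was 1.23% of the summed FPKM of all genes in each. The ratio of the Lgr6+ to the Lgr5+ sum was 82.8% for these genes and 83.3% for the whole table. The median gene had an FPKM of 84.6 in Lgr5+ and 58.8 in Lgr6+ progenitors, above 90.7% and 88.0% of the kept genes. The median log2 change was -0.13, against 0.03 over all kept genes. Scaling the populations to the same summed FPKM moves all genes upward, and the medians were then 0.13 and 0.27. The sign of the members' median thus depends on the scaling, while it lay below that of all kept genes with and without it. After quantile normalization the medians were -0.018 and -0.0088, so the members then hardly differed from all kept genes.

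**Figure D1:**
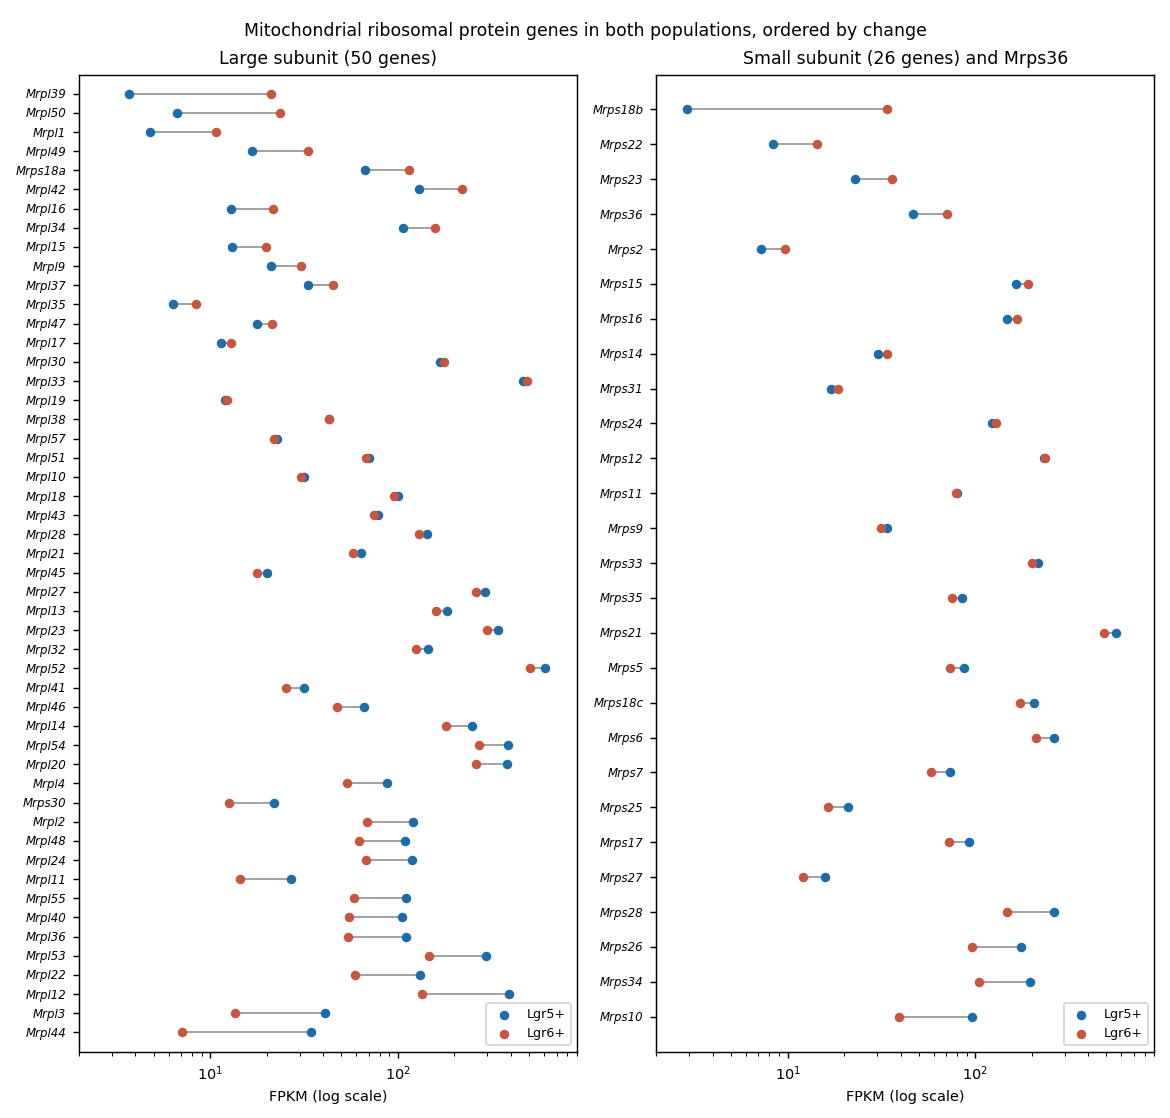
FPKM (log axis) of each of the 77 genes, large subunit on the left and small subunit with Mrps36 on the right, with a blue point for Lgr5+ and a red point for Lgr6+ progenitors joined by a grey line, ordered by log2 change. Most pairs of points lie close together, and the widest gaps are those of Mrps18b, Mrpl39 and Mrpl50 at the top and Mrpl44, Mrpl3 and Mrpl12 at the bottom; each point is the authors' combined value, with no error bar.

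Most members differed little between the populations. Of the 77 genes, 48 differed by less than 1.5-fold, 18 were higher in the Lgr5+ population and 11 in the Lgr6+ population. These 29 genes were 37.7% of the members, while 51.8% of all kept genes were at least 1.5-fold apart, 23.3% higher in Lgr5+ and 28.5% higher in Lgr6+ progenitors. Among genes that reached an FPKM of 5 in either population, a condition that all 77 members met, the share over all genes was 48.2%. At 2-fold, 7 members were higher on the Lgr5+ side and 4 on the Lgr6+ side, against 11.7% and 18.2% of all kept genes. Scaled to the same summed FPKM, 12 members were at least 1.5-fold higher in Lgr5+ and 16 in Lgr6+ progenitors. The middle 50% of the members spanned log2 changes from -0.52 to 0.18, a width of 0.69 against 1.25 over all kept genes. Members are highly expressed, and these gaps were smaller among genes of like level. Among genes with a mean FPKM of at least 20, 22 of 60 members were called, 36.7%, against 40.4% of 4201 genes, and the widths were 0.79 and 0.91. In the same range the medians were -0.20 and -0.13.

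The levels of the members differed far more between genes than between populations. The FPKM ran from 2.93 to 604 in Lgr5+ progenitors, a 206-fold range, and from 7.05 to 505 in Lgr6+ progenitors, a 71.7-fold range, although each protein is held in 1 copy per ribosome for nearly all of them. The order of the genes was alike in the populations, with a Spearman rho of 0.92 across the 77 genes, which come from the same libraries. The same measure was 0.97 across 78 oxidative phosphorylation genes, 0.93 across 80 cytoplasmic ribosomal protein genes and 0.85 across all kept genes.

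The highest members were *Mrpl52*, *Mrps21*, *Mrpl33*, *Mrpl54* and *Mrpl20*. *Mrpl52*, a mitochondrion-specific protein of the large subunit, had an FPKM of 604 in Lgr5+ and 505 in Lgr6+ progenitors and ranked first in both. *Mrps21*, the homologue of bacterial S21, had 562 and 482. *Mrpl33*, the homologue of bacterial L33, had 461 and 487. All 5 differed by less than 1.5-fold. *Mrpl54* had 386 and 269, and *Mrpl20* had 382 and 262, so these genes lay nearest below the threshold on the Lgr5+ side, with log2 changes of -0.52 and -0.54. Of the 10 highest members in each population, 7 were shared.

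The lowest members were *Mrpl35*, *Mrpl1*, *Mrps2*, *Mrps22* and *Mrpl17*. *Mrpl35*, the homologue of bacterial L35, had an FPKM of 6.37 in Lgr5+ and 8.37 in Lgr6+ progenitors. *Mrpl17*, whose product lies near the exit of the peptide tunnel, had 11.4 and 12.8. Of these 5 genes, *Mrpl1* and *Mrps22* were past 1.5-fold, both higher in Lgr6+ progenitors. No member was under an FPKM of 1 in either population, and 25 members reached 100 in both.

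Level went with transcript length. Over the 76 members with a transcript in GENCODE M1, mean FPKM and median annotated transcript length had a Spearman rho of -0.70. The 22 members with a median transcript under 800 bases had a median mean FPKM of 182, the 35 from 800 to under 1500 bases had 76.6 and the 19 of 1500 bases or more had 17.2. These points share libraries, and FPKM is itself divided by length, so the relation is given as a description. The log2 change had a rho of only 0.17 with length.

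**Figure D2:**
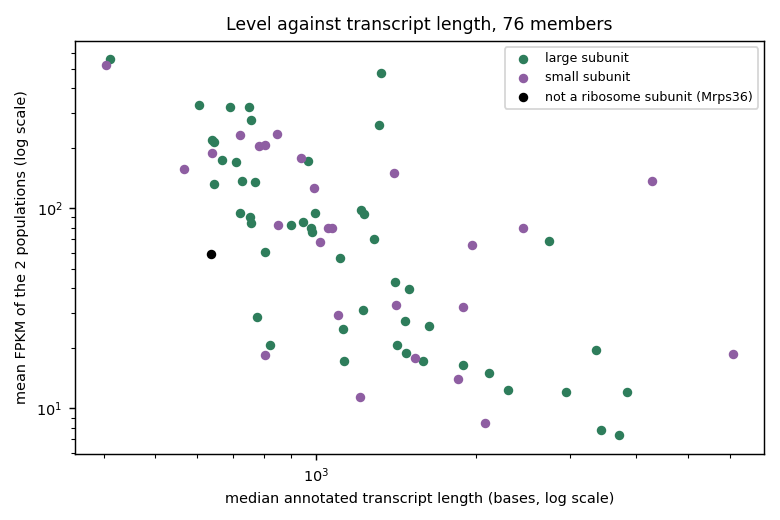
Mean FPKM of the 2 populations (log axis) against median annotated transcript length in bases (log axis) for 76 members, green for the large subunit, purple for the small subunit and black for Mrps36. Members with short transcripts sit high and members with long transcripts sit low, with a Spearman rho of -0.70.

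The members higher in Lgr6+ progenitors were led by *Mrps18b*. Mammals have 3 relatives of bacterial S18, which take different places: the *Mrps18c* product sits where bacterial S18 sits, the *Mrps18b* product elsewhere on the small subunit, and the *Mrps18a* product on the large subunit. *Mrps18b* lies on chromosome 17 (35910385 to 35916369, GRCm38). Its FPKM was 2.93 in Lgr5+ and 34.0 in Lgr6+ progenitors, an 11.6-fold ratio and a log2 change of 3.16. It was the lowest of the 77 members in Lgr5+ progenitors. The Lgr5+ value stands for 3.32 to 20.002 steps, depending on which of its 5 annotated transcripts sets the length, and the Lgr6+ value for 123 to 743. *Mrps18a* had 66.8 and 114, a log2 change of 0.77. *Mrps18c* had 206 and 173, a log2 change of -0.25, so the 3 relatives did not share a direction.

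*Mrpl39* and *Mrpl50* followed. *Mrpl39*, on chromosome 16 from 84717580 to 84735302, encodes a large-subunit protein related to threonyl-tRNA synthetase, and its FPKM was 3.68 in Lgr5+ and 21.0 in Lgr6+ progenitors. That is a 5.72-fold ratio and a log2 change of 2.24, on values of 59.8 and 1093 steps. *Mrpl50* (chromosome 4, 49512597 to 49521083) had 6.64 and 23.5, a log2 change of 1.68, on 98.8 and 1118 steps. These were the only members besides *Mrps18b* and *Mrpl1* at least 2-fold higher in Lgr6+ progenitors. *Mrpl1*, on chromosome 5, encodes the protein of the mobile L1 stalk, which guides spent tRNA out of the ribosome, and had 4.76 and 10.8, a log2 change of 1.04.

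The other 7 members higher in Lgr6+ progenitors were nearer the threshold. *Mrpl49* had an FPKM of 16.8 in Lgr5+ and 33.2 in Lgr6+ progenitors, which gives a log2 change of 0.94, and it shares its deposited interval with *Syvn1*. *Mrpl42* had 130 and 219. *Mrps22*, a mitochondrion-specific protein of the small subunit, had 8.39 and 14.3. *Mrpl16*, which lies near the incoming tRNA, had 12.9 and 21.6. *Mrps18a* was described with its relatives. *Mrps23* had 22.8 and 35.9 and *Mrps36* had 46.8 and 71.0, log2 changes of 0.63 and 0.59, just past the threshold. Just under it were *Mrpl34*, at 0.58, and *Mrpl15*, at 0.56, of which *Mrpl15* passed it with a pseudocount of 0.1. With scaling to the same summed FPKM both passed it, at 0.84 and 0.81, and *Mrpl34* also did after quantile normalization, at 0.74. *Mrps36* bears a ribosomal name, but its product is now known as a subunit of the 2-oxoglutarate dehydrogenase complex, so 76 of the 77 members encode ribosomal proteins.

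The members higher in Lgr5+ progenitors were led by *Mrpl44*, on chromosome 1 from 79776018 to 79781445. Its product carries a fold of the RNase III family and lies by the peptide tunnel exit. Its FPKM was 34.6 in Lgr5+ and 7.05 in Lgr6+ progenitors, a 4.91-fold ratio and a log2 change of -2.14, on 329 and 214 steps. It was the lowest of the 77 members in Lgr6+ progenitors. *Mrpl3*, on chromosome 9 from 105053268 to 105077476, encodes a homologue of bacterial L3, which reaches toward the peptidyl transferase centre, and had 41.0 and 13.5, a log2 change of -1.54. *Mrpl12* (chromosome 11, 120484669 to 120488754) had 389 and 135, a log2 change of -1.52, on 3376 and 3747 steps. Its product forms the flexible stalk that recruits translation factors, and it also binds the mitochondrial RNA polymerase. By level *Mrpl12* held rank 4 among the members in Lgr5+ progenitors and rank 21 in Lgr6+ progenitors.

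A further 9 members named by the same rule were 1.83 to 2.44-fold higher in Lgr5+ progenitors as a ratio of FPKM. *Mrps10*, a protein of the small-subunit head, had an FPKM of 96.2 in Lgr5+ and 39.4 in Lgr6+ progenitors. *Mrpl22*, which lines the peptide tunnel, had 131 and 58.8. *Mrpl53* had 295 and 146, and *Mrpl36* had 111 and 54.5. These 4 genes, with *Mrpl44*, *Mrpl3* and *Mrpl12*, were the 7 members at least 2-fold higher in Lgr5+ progenitors. *Mrpl40* had 105 and 54.9, *Mrpl55* had 110 and 58.2, *Mrps34* had 196 and 105, *Mrps26* had 176 and 96.5 and *Mrpl11* had 26.9 and 14.5. The remaining 6 of the 18, *Mrps28*, *Mrpl24*, *Mrpl48*, *Mrpl2*, *Mrps30* and *Mrpl4*, had log2 changes from -0.83 to -0.69. With scaling to the same summed FPKM all 6 lay within 1.5-fold, from -0.57 to -0.43. After quantile normalization *Mrpl4* did so too, at -0.57. The deposited intervals of *Mrpl53*, *Mrpl24* and *Mrpl48*, like those of *Mrpl49* and *Mrps23* on the other side, overlap another gene, so their reads may be shared. *Mrps30* carries a small-subunit name but its product belongs to the large subunit.

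**Figure D3:**
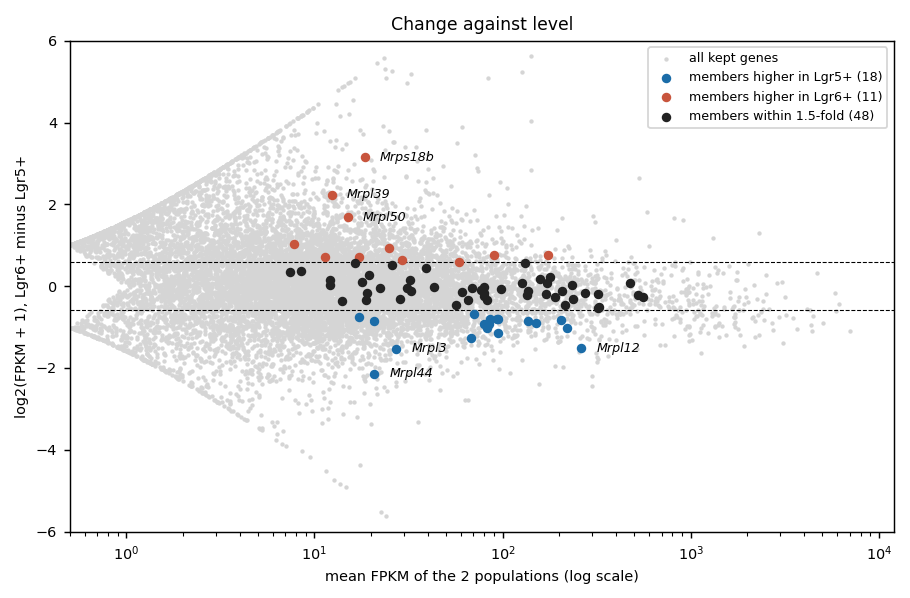
Log2 change (log2(FPKM + 1), Lgr6+ minus Lgr5+) against mean FPKM of the 2 populations (log axis), with all kept genes in grey, members past 1.5-fold in blue (18, higher in Lgr5+) or red (11, higher in Lgr6+), the other 48 members in black, and dashed lines at 1.5-fold. The named genes are the 3 members farthest out on each side, all within the grey cloud of other genes at their level; 6 kept genes beyond a log2 change of 6 are not drawn.

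Members at low and at higher levels differed in the side on which they lay, though not in an even order. Of the 17 members with a mean FPKM under 20, 6 were higher in Lgr6+ and 1 in Lgr5+ progenitors, with a median of 0.35 on the log2 scale, against 0.16 over the 9235 kept genes in that range. Of the 13 members from 20 to under 50, 2 and 3 were called in these directions, with a median of -0.05 against -0.05. From 50 to under 100 the counts were 2 and 9 of 21, with a median of -0.34 against -0.15, and 52.4% of members were called against 41.6% of all genes. From 100 to under 200 they were 1 and 2 of 12, with a median of -0.03 against -0.16. From 200 to under 1000 they were 0 and 3 of 14, with a median of -0.29 against -0.30. The medians thus did not fall steadily with level. Across the members the log2 change and the mean FPKM had a Spearman rho of -0.37, and across all kept genes -0.19. Steps were coarser in Lgr5+ progenitors, and their part in this order was not tested.

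The promoters of the 3 members farthest apart on each side are shown, as these 6 genes are the extremes of the ranking by log2 change. Sequences come from RefSeq on GRCm38.p6, in which 68 of the 77 members were matched. Each is the 150 bases before the annotated start, 5′ to 3′ on the strand of the gene. Capitals mark matches on either strand to GCGCA and GCGC separated by any 1 base, the core of the motif of NRF1, a known regulator of nuclear genes for mitochondrial proteins, or to CCGGAAG, the core of the ETS family motif, to which GABP binds. The intervals are chr17:35916441-35916590 (minus strand) for *Mrps18b*, chr16:84735245-84735394 (minus) for *Mrpl39*, chr4:49521084-49521233 (minus) for *Mrpl50*, chr1:79775868-79776017 (plus) for *Mrpl44*, chr9:105053118-105053267 (plus) for *Mrpl3* and chr11:120484487-120484636 (plus) for *Mrpl12*.
Mrps18b: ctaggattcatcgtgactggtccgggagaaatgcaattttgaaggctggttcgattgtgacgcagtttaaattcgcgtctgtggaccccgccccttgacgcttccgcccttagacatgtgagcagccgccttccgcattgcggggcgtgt
Mrpl39: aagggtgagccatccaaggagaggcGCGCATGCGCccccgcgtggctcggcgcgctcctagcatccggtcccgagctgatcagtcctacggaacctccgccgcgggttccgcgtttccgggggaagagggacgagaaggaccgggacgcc
Mrpl50: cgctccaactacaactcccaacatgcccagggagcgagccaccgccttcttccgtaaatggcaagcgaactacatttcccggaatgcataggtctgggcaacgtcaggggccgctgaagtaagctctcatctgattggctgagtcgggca
Mrpl44: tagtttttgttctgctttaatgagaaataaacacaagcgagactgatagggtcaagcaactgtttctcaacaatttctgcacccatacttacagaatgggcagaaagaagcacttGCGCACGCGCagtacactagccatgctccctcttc
Mrpl3: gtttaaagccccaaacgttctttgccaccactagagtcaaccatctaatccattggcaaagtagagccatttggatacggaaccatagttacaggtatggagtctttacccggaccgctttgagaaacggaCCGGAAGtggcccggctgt
Mrpl12: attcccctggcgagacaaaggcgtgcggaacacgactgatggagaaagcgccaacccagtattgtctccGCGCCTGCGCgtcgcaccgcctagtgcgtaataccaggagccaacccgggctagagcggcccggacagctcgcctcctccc

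The NRF1 core stood in these stretches of *Mrpl39*, *Mrpl44* and *Mrpl12*, which lie on different sides of the comparison, and the ETS core in that of *Mrpl3*. Over windows of 250 bases before to 50 after the start, the NRF1 core was found in 13 of the 68 members, 19.1%, against 5.19% of 27025 genes. These 27025 are all genes with a window and were not limited to the kept genes, whereas all members were kept. The shares below use the same background. The ETS core was found in 25 members, 36.8%, against 9.93%. AAGATGGCG, a core of the YY1 motif, was found in 8 members, 11.8%, against 1.64%, and TATAAA in 5, 7.35%, against 15.7%. At least 1 of the NRF1, ETS and YY1 cores was found in 6 of the 11 matched members higher in Lgr6+, in 8 of the 15 higher in Lgr5+ and in 26 of the 42 within 1.5-fold. The related lists also held these cores. The NRF1 core was found in 26.2% of 65 oxidative phosphorylation genes and 9.68% of 62 cytoplasmic ribosomal protein genes, the ETS core in 24.6% and 40.3%, and the YY1 core in 10.8% and 6.45%. Matches were counted on both strands. The ETS and YY1 cores share the letters AAG and so can overlap, though 0 of the windows used, of members or of other genes, held such an overlap. Whether the set of windows is complete is not known, so the shares hold only for the windows used. A match describes letters and not binding.

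By place in the ribosome, the stalk had the lowest median of the 3 places examined. *Mrpl10*, *Mrpl11*, *Mrpl12*, *Mrpl53* and *Mrpl54* encode the stalk and its base, where translation factors dock, and their log2 changes were -0.06, -0.85, -1.52, -1.01 and -0.52. Their FPKM summed to 1129 in Lgr5+ and 595 in Lgr6+ progenitors, a ratio of 52.7%. Of the 5 genes, 3 were called, a share of 60% that is near the 51.8% over all kept genes. All 5 values were negative, with a median of -0.85, and with scaling to the same summed FPKM 4 of 5 were negative, with a median of -0.60. *Mrpl10*, which anchors *Mrpl12* to the ribosome, had 31.8 and 30.5 and so hardly differed, while *Mrpl12* had 389 and 135.

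The 7 genes of the central protuberance, the crown of the large subunit that faces the tRNAs, had 3 called, 42.9% against 51.8% over all kept genes. All 7 values were negative, with a median of -0.45, but with scaling to the same summed FPKM only 4 of 7 were, with a median of -0.20. They ranged from -0.92 for *Mrpl40* to -0.01 for *Mrpl38*. *Mrpl18* had an FPKM of 100.4 in Lgr5+ and 95.4 in Lgr6+ progenitors, and *Mrpl27*, the homologue of bacterial L27, had 291 and 260. The 8 genes around the tunnel exit, where new chains leave toward the inner membrane, spread from -2.14 for *Mrpl44* to 2.24 for *Mrpl39*. *Mrpl45*, which tethers the ribosome to the membrane, had 20.1 and 17.9, and *Mrpl23*, at the rim of the exit, had 342 and 299.

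The subunits did not stand apart. The 50 large-subunit genes had a median log2 change of -0.15, with 14 higher in Lgr5+ and 7 higher in Lgr6+ progenitors. The 26 small-subunit genes had a median of -0.14, with 4 and 3. The shares called were 42% and 26.9%, against 51.8% over all kept genes. Both medians turned positive, 0.12 and 0.12, with scaling to the same summed FPKM. The 46 homologues of bacterial proteins had a median of -0.15 and the 30 mitochondrion-specific proteins -0.14, and both also turned positive there. Of the latter 15 of 30 were called, 50% against 51.8% over all kept genes, and of the former 13 of 46, 28.3%. The 30 include *Mrps18a* and *Mrps18b*, both higher in Lgr6+ progenitors. These are relatives of bacterial S18 but take other places in the ribosome, so the classes do not follow descent strictly. The mitochondrion-specific genes also lay at lower levels, with a median FPKM in Lgr5+ progenitors of 38.9 against 108. In Lgr6+ progenitors the gap was smaller, 44.1 against 70.8. In the small subunit, 14 of the 16 bacterial homologues lay within 1.5-fold, the exceptions being *Mrps10* and *Mrps28*. *Mrps12*, which forms part of the decoding site, had 232 and 235.

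**Figure D4:**
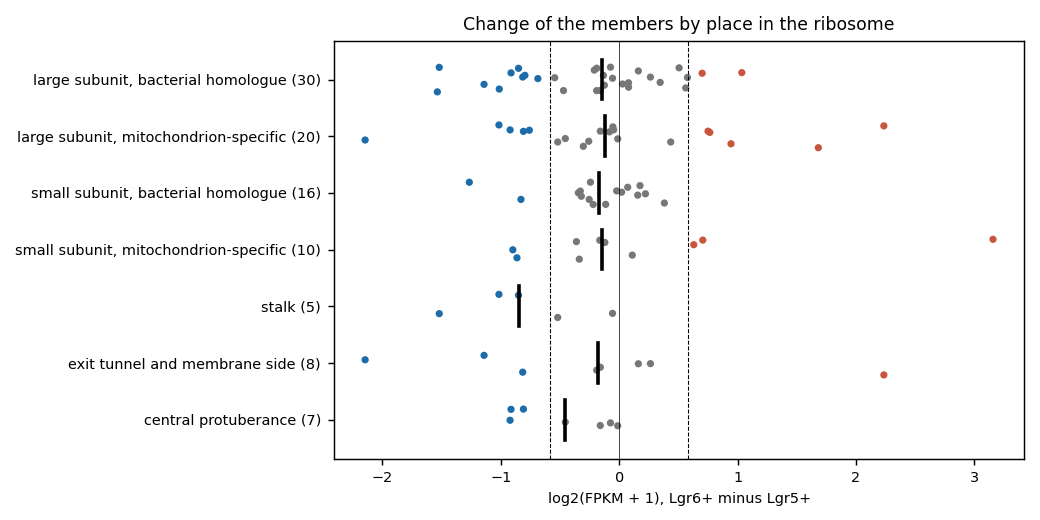
Log2 change of single genes (points) by subunit and ancestry and by place in the ribosome, with the number of genes in parentheses, blue or red for genes at least 1.5-fold higher in Lgr5+ or Lgr6+ progenitors, a black bar at the median and dashed lines at 1.5-fold; vertical scatter has no meaning. On this unscaled axis the stalk and the central protuberance lie below 0, with medians of -0.85 and -0.45 (with scaling to the same summed FPKM 1 of 5 and 3 of 7 genes lie above 0), while the subunit groups centre near -0.15.

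Among the members linked to hearing loss in people, *Mrps7*, on the head of the small subunit, had an FPKM of 73.2 in Lgr5+ and 58.1 in Lgr6+ progenitors. *Mrps2* had 7.23 and 9.73. *Mrpl50*, described with the genes higher in Lgr6+ progenitors, was the only 1 of the 3 past 1.5-fold on the unscaled values. With scaling to the same summed FPKM *Mrps2* was also past it, with a log2 change of 0.62. The wider list of 7 hearing-linked genes is a selection that is not exhaustive and reaches beyond translation. It had 3 genes called, 42.9% against 51.8% over all kept genes. In it, *Hars2*, the mitochondrial histidyl-tRNA synthetase, had 9.82 and 20.9, a log2 change of 1.02. *Peo1*, the mitochondrial DNA helicase, had 17.0 and 5.21, a log2 change of -1.54. *Lars2*, the leucyl-tRNA synthetase, had 258 and 310, and *Eral1*, a chaperone of the small-subunit RNA, had 7.53 and 9.74.

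Of the 6 ribosomal proteins that carry other names, 2 were higher in each population, 66.7% in all against 51.8% of all kept genes. *Dap3*, a GTP-binding protein of the small subunit, had an FPKM of 8.79 in Lgr5+ and 24.0 in Lgr6+ progenitors, and *Ptcd3* had 27.3 and 43.3. *Gadd45gip1* had 111 and 47.1, and *Aurkaip1* had 154 and 77.7. *Chchd1*, with 198 and 185, and *Ict1*, with 167 and 171, lay within 1.5-fold.

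Of 21 factors that assemble this ribosome, 5 were higher in Lgr6+ and 6 in Lgr5+ progenitors, 52.4% in all against 51.8% of all kept genes, with a median log2 change of -0.16. The rRNA methyltransferase *Rnmtl1* had 20.7 in Lgr5+ and 1.145 in Lgr6+ progenitors, the helicase *Ddx28* had 16.6 and 3.06, and *Fastkd2* had 3.66 and 0.610. *Mterfd2*, the partner of the methyltransferase *Nsun4*, had 8.68 and 24.3, and *Tfb1m*, which methylates the small-subunit RNA, had 4.63 and 10.1. Translation factors had mostly positive values, 10 of 12, against 6942 of the 13436 kept genes. Their median was 0.27, and 33.3% of the factors were called. Of these, *Gfm1* (3.58 and 8.98), *Mrrf* (7.19 and 11.5) and *Taco1* (0.134 and 1.25) were past 1.5-fold, the last of which was kept only through its Lgr6+ value, and the initiation factor *Mtif2* was higher in Lgr5+ progenitors, with 29.4 and 13.9. The elongation factors *Tufm*, with 29.7 and 44.8, and *Tsfm*, with 29.4 and 35.6, lay within 1.5-fold.

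Of 17 mitochondrial aminoacyl-tRNA synthetases, 6 were higher in Lgr6+ and 4 in Lgr5+ progenitors, 58.8% in all against 51.8% of all kept genes. *Mars2* had 3.33 in Lgr6+ progenitors and was listed at 0 in the other population, while *Ears2* had 15.96 and 4.98 and *Fars2* had 55.9 and 22.4. Of 12 genes for transcription and upkeep of mitochondrial DNA, 5 were higher in Lgr6+ and 2 in Lgr5+ progenitors, 58.3% in all. The elongation factor *Tefm* had 3.38 and 14.1 and the RNA polymerase *Polrmt* 4.62 and 12.7, while *Polg2*, the accessory subunit of the DNA polymerase, had 20.9 and 6.64.

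By median log2 change, the members lay between the cytoplasmic ribosomal proteins and the respiratory chain. Of 80 cytoplasmic ribosomal protein genes, 48 stood higher on the Lgr5+ side and 1, *Rpl26*, on the Lgr6+ side, with a median log2 change of -0.70, or -0.44 with scaling to the same summed FPKM. Their sum in Lgr6+ progenitors was 59.6% of that in Lgr5+ progenitors, against 82.8% for the members. Of 78 nuclear genes for oxidative phosphorylation subunits, 4 stood higher on the Lgr5+ side and 8 on the Lgr6+ side, with a median of 0.02 and a ratio of the sums of 94.8%. The share of genes called was 61.3% of the cytoplasmic ribosomal proteins, 37.7% of the members and 15.4% of the oxidative phosphorylation subunits. Over all kept genes it was 51.8%. The order of these shares depended on the scaling. In the same order they were 38.8%, 36.4% and 25.6% with scaling to the same summed FPKM. After quantile normalization they were 23.8%, 37.7% and 25.6%, with the members highest. These differences between lists have no test.

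**Figure D5:**
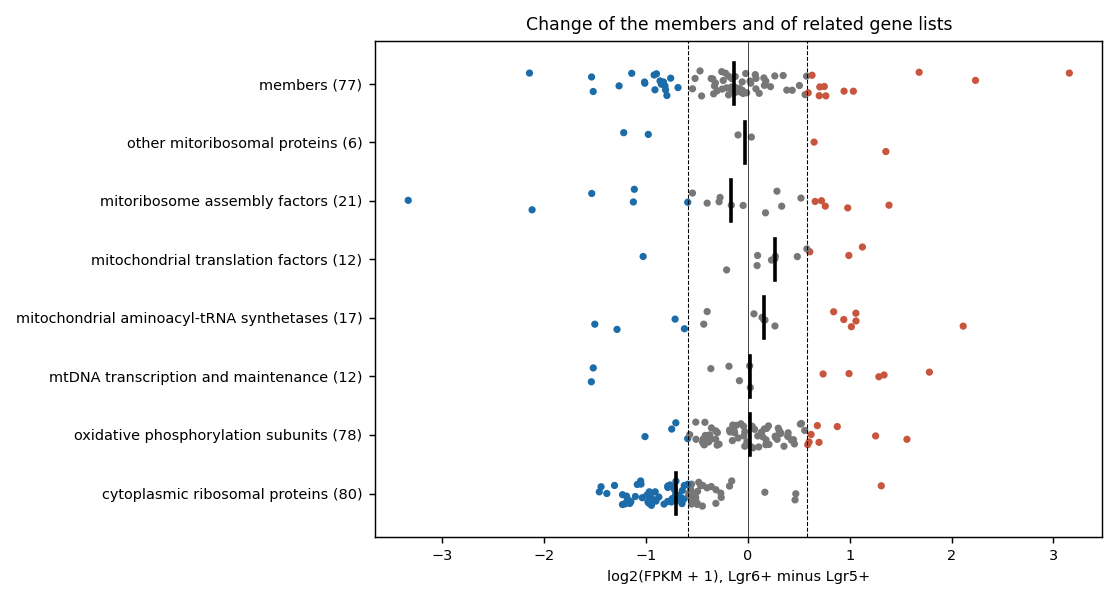
Log2 change of single kept genes (points) in the 77 members and in 7 related lists, with the number of genes in parentheses, blue or red for genes at least 1.5-fold higher in Lgr5+ or Lgr6+ progenitors, a black bar at the median and dashed lines at 1.5-fold; vertical scatter has no meaning. The cytoplasmic ribosomal proteins lie mostly left of 0 with a median of -0.70, the oxidative phosphorylation subunits cluster around 0.02, and the members centre at -0.13 with outlying genes on both sides.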

How the data were processed

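Sorted Lgr5+ and Lgr6+ cochlear cells were sequenced after low-input cDNA amplification. The authors used Trimmomatic for trimming and TopHat for mapping, and Cufflinks gave the deposited FPKM values (versions not given in the sources used here), 1 combined value per population. The submitters' processing notes name mm10 and the methods mm9. Of the 77 members, 34 deposited starts, counted from 0, and 48 ends equal RefSeq's on GRCm38.p6, so positions were read as GRCm38 and starts raised by 1. The 3 columns of the authors' own comparison (fold change, p and q) were not used. Log2(FPKM + 1) differences were calculated over the whole table with Python 3.11.15, numpy 2.4.6, pandas 2.3.3 and scipy 1.17.1, and checked on simulated data. Alternatives were another pseudocount, filters, scalings and a 2-fold threshold.

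The members and lists were chosen with earlier results of these data known. Named genes were the 12 members farthest apart in each direction, the 5 highest and lowest, those next to the threshold, the *Mrps18* relatives, hearing-linked members, the genes farthest apart in each related list and the ribosomal proteins with other names. Genes named by place in the ribosome, the other called members, genes of the lists within 1.5-fold and neighbours at divergent starts were named after their values were seen. Markers and lists are those of textbook knowledge. The effective length was transcript length less 200 bases. Deposited intervals of 11 members, 5 of them called, are shared with another gene.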

Additional observations from a re-analysis of the deposited data

How the results depend on the processing

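The values rest on 1 combined value per population, so leaving out a replicate was not run. No paired analysis was possible because the deposited columns carry no replicate numbers. The scaling mattered most. Scaling to the same summed FPKM moved the median of all kept genes by 0.24 on the log2 scale, from 0.03 to 0.27. Under it the median log2 change was 0.13 for the members, 0.12 for the large subunit, 0.12 for the small subunit, 0.12 for bacterial homologues, 0.12 for mitochondrion-specific proteins, 0.083 for the tunnel exit, 0.23 for the ribosomal proteins with other names and 0.092 for assembly factors, all of opposite sign to the unscaled medians. It was 0.51 for translation factors, 0.40 for aminoacyl-tRNA synthetases, 0.26 for mitochondrial DNA genes, 0.57 for the hearing-linked list, -0.44 for cytoplasmic ribosomal proteins and 0.28 for oxidative phosphorylation subunits, all shifted by over 0.2. After quantile normalization the medians were 0.16 for the ribosomal proteins with other names, of opposite sign, -0.28 for cytoplasmic ribosomal proteins and 0.33 for oxidative phosphorylation subunits. At 2-fold, 4 members were higher in Lgr6+ and 7 in Lgr5+ progenitors. Of 328 log2 changes of 41 of the named members under these alternatives, 13 crossed 1.5-fold. Among these 41 the sign changed in 3, those of *Mrpl52*, *Mrps18c* and *Mrps21* with summed FPKM scaling (0.007, 0.010 and 0.045), all within 1.5-fold. Over all 77 members signs depended on the scaling far more. Unscaled, 28 values were positive and 49 negative, and with summed FPKM scaling 49 were positive and 28 negative. After quantile normalization 36 were positive and 41 negative. Asking for an FPKM of 1 in each population, added after the data were seen, left the members' counts at 11 and 18. Low Lgr5+ values, above all that of *Mrps18b*, rest on few steps.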

Other observations

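Many members start next to another gene that runs the other way. Of the 68 members with a promoter window, 23 had a window that overlaps that of a gene of the table on the opposite strand, 33.8% against 9.03% of the 16753 genes of the table with a window. *Mrpl46* and *Mrps11*, from different subunits, are such a pair, with 41 bases between their annotated starts. These bases are shown because both genes start at their edges (GRCm38.p6, plus strand, chr7:78783090-78783130).
Between Mrpl46 and Mrps11: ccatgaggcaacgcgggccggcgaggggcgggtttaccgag
*Mrpl46* had an FPKM of 65.6 in Lgr5+ and 47.6 in Lgr6+ progenitors, and *Mrps11* had 79.9 and 78.7, so both lay within 1.5-fold.

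Other pairs join this ribosome to the genes around it. *Mrps12* starts beside *Sars2*, the mitochondrial seryl-tRNA synthetase. *Mrps12* had a log2 change of 0.02 and *Sars2* one of 0.84, with an FPKM of 15.1 in Lgr5+ and 27.8 in Lgr6+ progenitors. *Mrpl47* starts beside *Ndufb5*, a complex I subunit, with log2 changes of 0.26 and 0.45. *Mrpl49* starts beside *Fau*, which encodes a cytoplasmic ribosomal protein, and these differed in opposite directions, by 0.94 for *Mrpl49* and by -1.21 for *Fau*, whose FPKM was 3215 in Lgr5+ and 1394 in Lgr6+ progenitors. *Mrps27* starts beside *Ptcd2*, a mitochondrial RNA-binding protein, which had 21.1 and 3.37 while *Mrps27* had 15.9 and 12.2. None of these pairs was tested.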
